A study of Mus musculus with 3 samples.

Results

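The CXC chemokine ligand genes are the subject here: Cxcl1, Cxcl2, Cxcl3, Cxcl5, Cxcl9, Cxcl10, Cxcl11, Cxcl16, Pf4 and Ppbp, 10 of 55536 mouse genes in the deposited tables, taken by their symbols. They were read in polyadenylated RNA of bone-marrow-derived macrophages, phagocytes that are grown from marrow precursors in culture, from mice of the inbred strain C57BL/6J. All cells had been exposed for 180 min to a bacterial stimulus at 100 ng/mL, which one label calls lipid A (the part of lipopolysaccharide that Toll-like receptor 4 binds) and others lipoprotein A. The 3 libraries are biological replicates of this one group, each made from 1 µg of RNA. All carry the same donor identifier, so separate animals are not identified, and any p-value measures only the spread between these samples, which may be technical. No unstimulated group was analysed here, so nothing below measures what the stimulus changed: genes are compared within a library, and replicates with one another.

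CXC chemokines are small secreted proteins with a pair of cysteines separated by a single residue near the start of the mature chain. Those that carry the residues glutamate, leucine and arginine (ELR) before the first cysteine act on the receptor CXCR2 and attract neutrophils, whereas the interferon-inducible ligands CXCL9, CXCL10 and CXCL11 lack ELR and attract activated T cells and natural killer cells through CXCR3. CXCL16 is made as a membrane protein that binds CXCR6 and is shed by ADAM proteases. PF4 and PPBP are best known as contents of platelet granules. Macrophages are a known source of several of these ligands.

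The split by ELR can be read in the coding sequences. The ELR letters precede the C-x-C motif in 5 members (Cxcl1, Cxcl2, Cxcl3, Cxcl5 and Ppbp) and not in the other 5. Below are 45 coding bases (15 codons) around the motif for 6 members whose contrast the results turn on: the related genes Cxcl1, Cxcl2 and Cxcl3, the platelet pair Ppbp and Pf4, and Cxcl10. Sequences are from the GENCODE M21 transcripts, 5′ to 3′ on the coding strand, and capitals mark the codons of ELR and C-x-C or, where ELR is missing, of C-x-C alone.
Cxcl1 codons 27 to 41: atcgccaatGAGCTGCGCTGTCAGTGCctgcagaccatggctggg
Cxcl2 codons 30 to 44: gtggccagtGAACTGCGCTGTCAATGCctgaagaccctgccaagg
Cxcl3 codons 30 to 44: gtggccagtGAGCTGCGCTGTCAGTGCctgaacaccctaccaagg
Ppbp codons 46 to 60: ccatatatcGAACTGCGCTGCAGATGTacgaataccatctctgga
Pf4 codons 38 to 52: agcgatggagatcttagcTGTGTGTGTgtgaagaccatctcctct
Cxcl10 codons 24 to 38: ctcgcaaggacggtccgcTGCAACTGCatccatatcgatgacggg
The proteins encoded by the main transcripts were 96 to 132 residues long, except that of Cxcl16 with 246. Cxcl2 and Cxcl3 were 82.0% identical over 100 aligned residues, the highest of the 45 pairs, followed by Cxcl1 and Cxcl2 at 67.7%. Pf4 and Ppbp shared 52.6% of 95 aligned residues although only Ppbp has ELR.

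Chromosome 5 holds 9 of the 10 genes in mm10 (GENCODE M21). On the forward strand stand Cxcl5 (chr5:90759360-90761624), Ppbp (chr5:90768518-90770063), Pf4 (chr5:90772435-90773383), Cxcl3 (chr5:90786103-90789600), Cxcl1 (chr5:90891241-90893115) and Cxcl2 (chr5:90903871-90905938), within 146.6 kb. At a distance of 1415.4 kb, on the reverse strand, Cxcl9 (chr5:92321347-92328079), Cxcl10 (chr5:92346638-92348889) and Cxcl11 (chr5:92359544-92365485) fill 44.1 kb. Cxcl16 stands alone on chromosome 11 (chr11:70453983-70459984, reverse strand).

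Promoter letters were available in RefSeq (GRCm38.p6) for 7 members: Cxcl1, Cxcl2, Cxcl3, Cxcl9, Cxcl10, Pf4 and Ppbp. The windows are 300 bases long and run from before the start site to just past it. An NF-kB-like word, GGGNNNTTCC on either strand, occurred in 4 of the 7 windows (Cxcl1, Cxcl2, Cxcl3 and Cxcl10), against 5.56% of 32851 promoters of the same length. An interferon-response word, GAAANNGAAA, occurred only in Cxcl10 among the 7, against 3.44% of all promoters. The stretches that hold these words are shown for a contrast described further on. Cxcl1, Cxcl2 and Cxcl3 were each over 2-fold higher in replicate 2 than in each other replicate, by unequal amounts. Cxcl10 was not. Pf4 and Ppbp were also over 2-fold higher in replicate 2, though their windows held no NF-kB-like word. Cxcl9 held none either and was not over 2-fold higher. A link between these words and the levels in replicate 2 was not tested. Capitals mark the matches to either word. Positions are given relative to the start site. In the first 3 genes the longest run of capitals holds overlapping matches, one on each strand.
Cxcl1 (chr5:90891125-90891214, forward strand, positions -120 to -31): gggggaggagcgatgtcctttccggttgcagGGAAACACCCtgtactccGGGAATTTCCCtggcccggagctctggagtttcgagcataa
Cxcl2 (chr5:90903779-90903868, forward strand, positions -120 to -31): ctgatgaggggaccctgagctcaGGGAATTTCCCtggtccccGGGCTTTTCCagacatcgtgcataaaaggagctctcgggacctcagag
Cxcl3 (chr5:90785981-90786070, forward strand, positions -120 to -31): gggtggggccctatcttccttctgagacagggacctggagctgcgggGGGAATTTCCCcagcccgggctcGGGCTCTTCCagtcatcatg
Cxcl10 (chr5:92348980-92349109, reverse strand, positions -220 to -91): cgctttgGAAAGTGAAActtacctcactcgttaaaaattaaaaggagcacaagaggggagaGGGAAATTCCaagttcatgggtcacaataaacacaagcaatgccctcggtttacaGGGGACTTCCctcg
The word GGGAATTTCCC is present in Cxcl1, Cxcl2 and Cxcl3. The TATA-box word TATAAA occurred on the coding strand in Cxcl3, Ppbp and Cxcl9, 3 of the 7, against 13.6% of all promoters for either strand. These are matches of letters, and binding was not measured.

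Expected counts over mouse genes summed to 24450338 in replicate 1, 34641026 in replicate 2 and 60595742 in replicate 3. Macrophage markers were all detected (8 of 8), with a summed level of 19349 to 29264 TPM (a level that is scaled for transcript length and library size). None of 4 epithelial markers, 7 stromal markers or 10 markers of megakaryocytes and platelets reached 1 TPM in every replicate. That rule passes over genes seen in one library only. The stromal markers summed to 0.51, 7.64 and 0.98 TPM in replicates 1, 2 and 3. Most of the replicate 2 sum came from Dcn, with 0, 5.12 and 0.02 TPM (0, 176 and 1 counts). Other lists held single detected genes: 2 of 6 endothelial markers (Kdr at 17.0, 7.52 and 18.8 TPM and Vwf at 15.7, 6.20 and 18.2 TPM in replicates 1, 2 and 3), 1 of 6 T cell markers (Lck at 34.7, 24.6 and 46.5 TPM) and 2 of 6 dendritic cell markers. Cd3d, Cd3e and Trac, defining T cell markers, had 0 counts in replicates 1 and 3 and 1 count each in replicate 2. The other markers of this list had reads elsewhere too: Cd3g had 2, 5 and 0 counts and Cd2 had 1 count in each library. In the second quantification by the authors Cd3d had 0.52, 0.45 and 0.31 TPM. The neutrophil list (4 of 10 detected) differed between libraries: its members summed to 93.5, 728.8 and 55.6 TPM in replicates 1, 2 and 3. Replicate 2 was the highest library for 9 of 10, beside 43.9% of detected genes. Ly6g, a surface marker of mature mouse neutrophils, had 0 counts in every library, which allows a share of up to 1.23e-05%, 8.66e-06% and 4.95e-06% of the counts in replicates 1, 2 and 3. In bulk RNA, fewer cells of a type and less RNA per cell cannot be told apart.

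Cxcl10 dominated the family, and its level exceeded that of each other member in every replicate. With detection set at 1 TPM in every replicate, 9 of the 10 members were detected, against 18.1% of all 55536 genes, and Cxcl5 was not. By mean level the order was Cxcl10, Pf4, Cxcl16, Cxcl9, Cxcl2, Cxcl11, Cxcl1, Cxcl3, Ppbp and Cxcl5. Cxcl10 made up 92.4%, 83.8% and 92.3% of the family's summed TPM in replicates 1, 2 and 3. The plot of levels by replicate shows that the span within the family was much wider than the spread of most of its members.

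**Figure D1:**
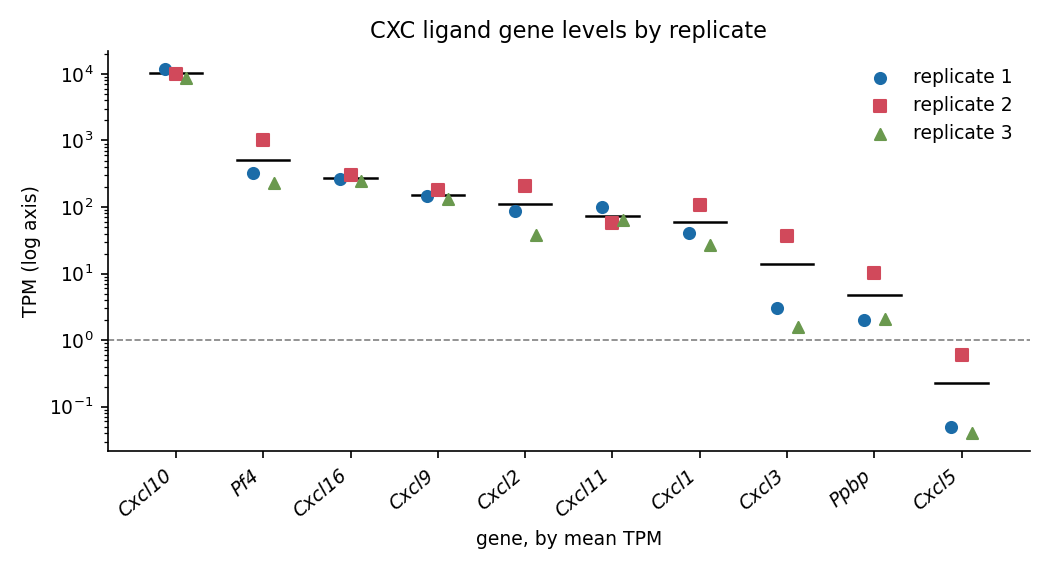
Level of each CXC ligand gene in TPM (log axis) in replicates 1 (circles), 2 (squares) and 3 (triangles), ordered by mean (black lines); the dashed line marks 1 TPM. Cxcl10 lies near 10183 TPM and Cxcl5 below the line, and the replicate 2 squares stand above the others for Pf4, Cxcl2, Cxcl1, Cxcl3, Ppbp and Cxcl5.

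Among the CXCR3 ligands, Cxcl10 had 11864, 9876 and 8809 TPM in replicates 1, 2 and 3, a mean of 10183 ± 1550 (SD, n = 3) that ranked 11th among all genes. Its replicates lay within 1.35-fold of one another, with replicate 1 highest. A second quantification by the authors put replicate 2 of Cxcl10 highest instead (8276, 8606 and 6678 TPM). Cxcl9, whose product attracts T cells through the same receptor, had 149, 182 and 130 TPM (mean 153 ± 25.9). The level of Cxcl11 was 101, 58.1 and 63.8 TPM (mean 74.3 ± 23.4), highest in replicate 1. No replicate placed these 3 genes in another order. Log2 ratios of TPM + 0.1 put Cxcl10 above Cxcl11 by 7.13 ± 0.27 (140-fold), and Cxcl9 above Cxcl11 by 1.08 ± 0.55 (2.11-fold). Each of these ratios was larger than its SD and lay on one side in 3 of 3 replicates. The exact two-sided sign-flip test over replicates gave p = 0.25 for each, the smallest that 3 replicates allow, so no pair can pass a threshold of 0.05 in this design.

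Cxcl16, whose product joins a chemokine head to a membrane-bound stalk, had 263, 302 and 248 TPM in replicates 1, 2 and 3 (mean 271 ± 28.2). By these values it was the steadiest member, with a coefficient of variation of 10.4% over replicates and a range of 1.22-fold. Cxcl16 stood above Cxcl9 by 0.83 ± 0.10 on the log2 scale, in 3 of 3 replicates, and below Cxcl10 by 5.23 ± 0.24. In the second quantification Cxcl16 was not the steadiest. It had 209, 286 and 198 TPM there (mean 231 ± 48.3), a wider relative spread than that of Cxcl10 (mean 7853 ± 1031).

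The ELR genes differed more between replicates than the CXCR3 ligand genes did, and their levels overlapped: Cxcl2 had a higher mean than Cxcl11. Cxcl2, which encodes the neutrophil attractant MIP-2, had 88.5, 206 and 38.6 TPM (mean 111 ± 85.7). Cxcl1, which encodes the related attractant KC, had 41.4, 109 and 26.7 TPM (mean 59.0 ± 43.9). In both genes replicate 2 was high and replicate 3 low. Cxcl2 exceeded Cxcl1 in 3 of 3 replicates, by 0.85 ± 0.29 (log2; 1.80-fold).

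Cxcl3, the closest relative of Cxcl2 by protein sequence, had 3.04, 37.2 and 1.55 TPM in replicates 1, 2 and 3, so that replicate 2 alone lifted its mean to 13.9 ± 20.2. Its counts were 37, 631 and 45. As a ratio of counts scaled to library totals, replicate 2 stood 12.04-fold above replicate 1 (exact 95% interval 8.64 to 17.3, counting error only) and 24.5-fold above replicate 3 (18.1 to 34.0). This was the widest spread of any detected member. The main transcripts of Cxcl2 and Cxcl3 share 7.41% and 8.11% of their 31-base words with each other, so some reads of one could have been assigned to the other. Cxcl2 stood 4.82, 2.46 and 4.55 (log2) above Cxcl3 in replicates 1, 2 and 3. A small part of the Cxcl2 reads could therefore be a large part of the Cxcl3 level, most of all in replicates 1 and 3. Its size was not tested, and the intervals above do not cover it.

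Cxcl5, whose product is the neutrophil attractant LIX, had 0.05, 0.60 and 0.04 TPM, from 1, 18 and 2 counts. Replicate 2 was again the highest, at 12.7-fold the rate of replicate 1 (exact 95% interval 2.01 to 529) and 15.7-fold that of replicate 3 (3.77 to 140). Counts in replicates 1 and 3 were at or under 3, the number that a count of 0 could hide, so these ratios are known only within their intervals.

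Pf4 and Ppbp, both known from platelets, stood far apart in level. Pf4, whose product binds heparin, had 322, 1001 and 226 TPM in replicates 1, 2 and 3 (mean 517 ± 423) and ranked second in the family by mean. Ppbp, the precursor of the CXCR2 ligand NAP-2, had 2.04, 10.1 and 2.05 TPM (mean 4.74 ± 4.66). Replicate 2 was the highest library for both, and Pf4 exceeded Ppbp by 6.86 ± 0.33 (log2; 116-fold) in 3 of 3 replicates. Beside them, the 10 other megakaryocyte and platelet markers summed to 1.93, 4.79 and 3.21 TPM. Replicate 2 was the highest library for 9 of 10, beside 43.9% of detected genes. None of the 10 was itself detected, and several rest on few counts. Itga2b and Gp1ba, defining markers of that lineage, had 0.24, 0.98 and 0.45 TPM and 0.11, 0.58 and 0.20 TPM. The part of such cells in the Pf4 and Ppbp levels was not tested.

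Replicate 2 separated the family into genes that were raised there and genes that were not. Of the 9 detected members, 5 (Cxcl1, Cxcl2, Cxcl3, Ppbp and Pf4) were over 2-fold higher in replicate 2 than in each other replicate, against 1.54% of the 10026 detected genes. The same 5 members were those whose highest replicate was over 2-fold above the lowest, against 10.6% of detected genes. By direction alone, 7 of 9 were highest in replicate 2 (43.9% of detected genes) and 7 of 9 were lowest in replicate 3 (34.9%). The exceptions were Cxcl10 and Cxcl11, highest in replicate 1, and Cxcl11 and Ppbp, lowest in replicates 2 and 1. In the second quantification Cxcl10 was highest in replicate 2 and Cxcl11 was lowest in replicate 3.

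Measured as log2(TPM + 0.1) in replicate 2 minus the mean of the other replicates, the 5 ELR genes had a median of 2.25 and ranged from 1.71 for Cxcl1 to 4.04 for Cxcl3. Pf4 stood at 1.89. The CXCR3 ligand genes had a median of -0.05, from -0.47 for Cxcl11 to 0.38 for Cxcl9, and Cxcl16 stood at 0.24. Over all detected genes the median was 0.08. The neutrophil markers had a median of 3.11, the megakaryocyte and platelet markers 1.09, the stromal markers 1.35 and the dendritic cell markers 0.68. The T cell markers stood at 0.57, the endothelial markers at -0.23, the epithelial markers at 0.00 and the macrophage markers at -0.14. Medians of lists with few detected genes rest on values near the floor. No stromal, epithelial or megakaryocyte and platelet marker was detected, and 1 of 6 T cell markers was. Of the 4 epithelial markers, 3 had 0 TPM in every replicate. The neutrophil genes S100a9 and Ngp had 47.1, 432 and 26.0 TPM and 3.94, 60.6 and 2.85 TPM, the same order of replicates as Cxcl1, Cxcl2, Cxcl3 and Pf4. Not all of the list had that order: 6 of its 10 genes were lowest in replicate 3, beside 34.9% of detected genes. Camp (0.12, 5.58 and 0.16 TPM) and Mpo (0.03, 1.48 and 0.13 TPM) were lowest in replicate 1. Whether these markers have a part in the levels of the ELR genes and Pf4 was not tested.

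**Figure D2:**
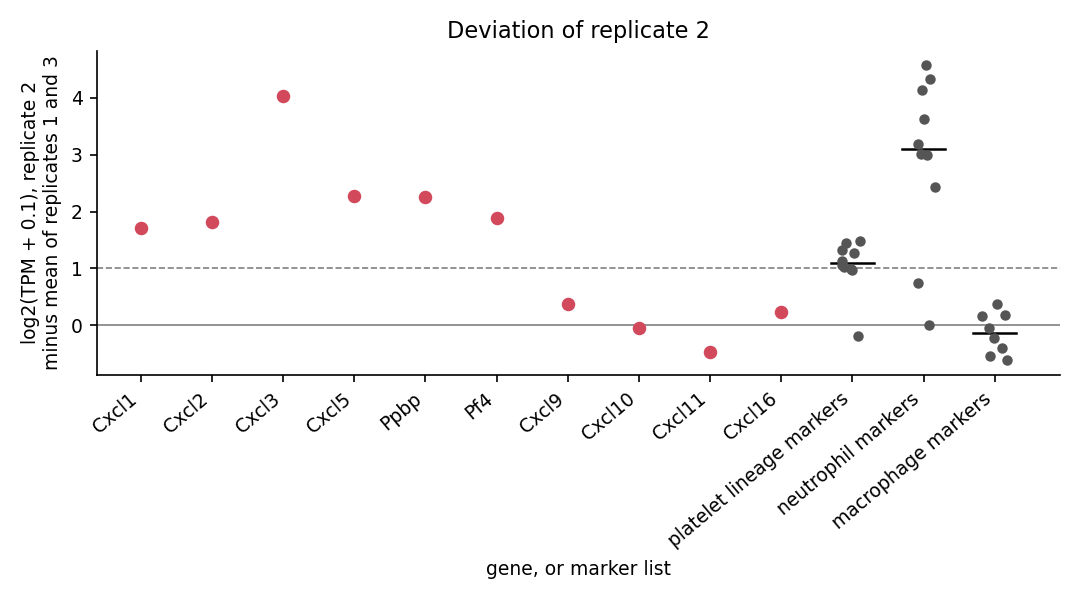
Difference of log2(TPM + 0.1) between replicate 2 and the mean of replicates 1 and 3, for each CXC ligand gene (red) and for the single genes of 3 marker lists (grey, with their medians as black lines; platelet lineage stands for megakaryocytes and platelets). The 5 ELR genes and Pf4 lie above the dashed line at 1 (2-fold), the CXCR3 ligand genes and Cxcl16 lie between -0.47 and 0.38, and neutrophil markers have a median of 3.11.

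Counting noise alone was exceeded by every member that could be tested, as it was by most genes. All 9 members that could be tested departed from equal rates between replicates (chi-square test on rounded expected counts with TMM-scaled library sizes, adjusted p under 0.05 after Benjamini-Hochberg adjustment over 11611 genes), but so did 77.5% of all tested genes. The gene-wise biological coefficient of variation from edgeR told the members apart. It was 0.754 for Cxcl3, 0.499 for Ppbp, 0.419 for Cxcl2, 0.387 for Pf4 and 0.366 for Cxcl1, which are at or above the 96.9th percentile of tested genes. For Cxcl16, Cxcl9, Cxcl10 and Cxcl11 it was 0.178, 0.185, 0.195 and 0.232, between the 13.5th and the 59.7th percentile, with a median of 0.213 over all genes.

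Most of this spread came from one library. Between replicates 1 and 3 alone, only Cxcl2 differed by more than 2-fold (88.5 against 38.6 TPM), 1 of 9 detected members against 3.89% of detected genes. Without replicate 2 the chi-square test called 8 of 9 members, against 50.6% of 12037 tested genes, and Ppbp, with 2.04 and 2.05 TPM in these libraries, was the one it did not call (adjusted p = 0.998, edgeR scaling). Cxcl3 (3.04 against 1.55 TPM) and Cxcl16 (263 against 248 TPM) had adjusted p-values of 0.0044 and 0.0236 in that test, with edgeR scaling.

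Despite the uneven libraries, most pairs of members kept their order. Of the 45 pairs, 40 had a log2 ratio larger than its SD with all replicates on one side, and 38 of these differed by over 2-fold in the mean. Among the 9 pairs of neighbours in the order by mean, 4 did so: Cxcl10 over Pf4 (4.60 ± 1.12), Cxcl16 over Cxcl9 (0.83 ± 0.10), Cxcl1 over Cxcl3 (3.10 ± 1.35) and Ppbp over Cxcl5. The size of the last ratio is largely set by the added TPM, at 3.88 with 0.1 and 1.96 with 1, since Cxcl5 had 1, 18 and 2 counts against 27, 187 and 65 of Ppbp. The same limit holds for each of the 9 pairs with Cxcl5 that are counted here. The other 5 neighbours did not differ beyond their spread. Those were Pf4 and Cxcl16 (0.63 ± 0.97), Cxcl9 and Cxcl2 (0.77 ± 0.97), Cxcl2 and Cxcl11 (0.30 ± 1.34), Cxcl11 and Cxcl1 (0.55 ± 1.26), and Cxcl3 and Ppbp (0.68 ± 1.13). In each of these 5 pairs the replicates lay on both sides. By contrast, the ratio of Pf4 to Cxcl1 varied little, at 3.08 ± 0.12, while both levels varied over 4-fold between replicates.

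The members that stood high in replicate 2 were those of one stretch of chromosome 5. All 6 members of the stretch from Cxcl5 to Cxcl2 were over 2-fold higher in replicate 2 than in each other replicate on the TPM + 0.1 scale, Cxcl5 from few counts. None of the 3 members from Cxcl9 to Cxcl11 was, nor was Cxcl16. Neighbouring genes are not independent, and no test was made of this grouping. Within the first stretch, the adjacent genes Ppbp and Pf4, 2.37 kb apart, differed 116-fold in level. Cxcl1 and Cxcl2, 10.8 kb apart, differed 1.80-fold. In the second stretch Cxcl10 lay between neighbours that were 66.4-fold (Cxcl9) and 140-fold (Cxcl11) lower.

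**Figure D3:**
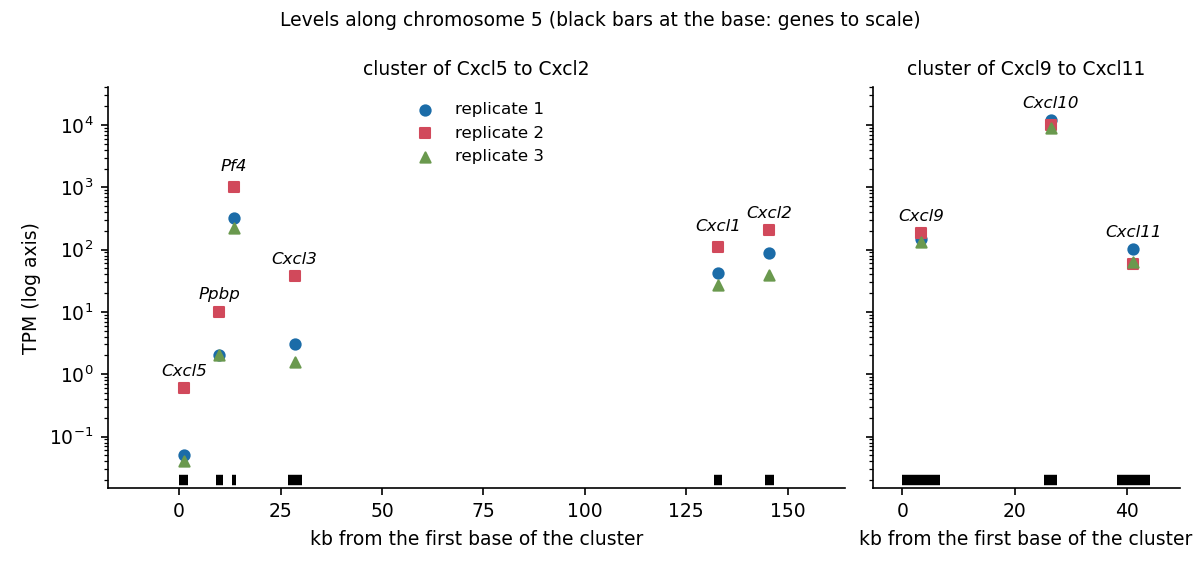
Level in TPM (log axis) of the 9 CXC ligand genes on chromosome 5 against their distance in kb from the first base of each cluster, in replicates 1 (circles), 2 (squares) and 3 (triangles), with genes drawn to scale as black bars at the base. Replicate 2 is the highest for all 6 genes on the left, whereas on the right the replicates lie close together and Cxcl10 stands far above Cxcl9 and Cxcl11.

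Genes on the opposite strand overlap 3 members, and the sources used here do not say if the libraries kept strand. Art3 spans Cxcl10 and Cxcl11 and had 0.91, 0.82 and 1.44 TPM, far below either. Zmynd15 overlaps the end of Cxcl16 by 552 bases and had 6.14, 6.16 and 5.78 TPM. The Cxcl16 transcript shares 19.6% of its 31-base words with it. Reads from these overlaps cannot be told apart without strand.

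Other genes followed the members' profiles over the 3 replicates. Likeness was measured as the Euclidean distance between deviations of log2(TPM + 0.1) from each gene's own mean, over 3 replicates of one group, and it describes these libraries only. Nearest to Cxcl2 were Gm18445 (distance 0.014), Il12a (0.168), which encodes a subunit of interleukin 12, and AL731706.2 (0.270), and Cxcl1 was the 7th nearest of all detected genes (0.406). Cxcl3 was far from both uneven members examined: it came 7060th from Cxcl2 (1.825), farther than Cxcl9 (1.366), Cxcl16 (1.501) and Cxcl10 (1.614), and 7647th from Pf4 (1.775). This distance is not scaled for the size of the swing between replicates. Cxcl3 had the same order of replicates as Cxcl2, with a larger log2 deviation of replicate 2 from the others (4.04 against 1.81). Pf4 lay nearest to Cdca3 (0.034), Asf1b (0.082) and Gins2 (0.125), genes with roles in cell division, histone deposition and DNA replication, and Cxcl1 came 4th (0.170). Few genes lay near these uneven members: 1 gene lay within 0.1 of Cxcl2 and 2 lay within 0.1 of Pf4. For the even members the reverse held. Cxcl10 had 208 genes within 0.1, led by Acod1 (0.005), the gene of the itaconate-producing enzyme, Zcchc8 (0.013) and Hdac1 (0.015). Cxcl16 had 528, led by Mmaa (0.002), Taf2 (0.007) and Usp4 (0.007). The limit of 0.1 is the same for small and large swings, and 10.6% of detected genes varied over 2-fold between replicates. An even profile thus has more genes near it by construction, so these counts describe no separate trait of the members.

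A single annotated transcript carried nearly all of the level of most members. Cxcl5-201 and Ppbp-201 made up 100% of their genes' TPM, Cxcl3-201 99.98%, Pf4-201 99.5%, Cxcl10-201 97.1% and Cxcl1-201 97.1% in the mean of 3 replicates. In Cxcl10 the share of retained-intron transcripts was 3.73%, 2.42% and 1.45% in replicates 1, 2 and 3. Cxcl2-201 made up 88.8%, 95.9% and 85.5%, so its share was highest in the replicate where the gene itself was highest.

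Cxcl16, Cxcl11 and Cxcl9 were less uniform. Cxcl16 was the most divided: Cxcl16-201, its protein-coding transcript, held 58.0%, 67.8% and 69.4% of its TPM in replicates 1, 2 and 3. Cxcl16-202, annotated as a target of nonsense-mediated decay, held 39.9%, 30.3% and 28.7%. In the second quantification Cxcl16-201 held 48.4%, 68.6% and 72.9%. Decay and retained-intron transcripts of Cxcl16 together held 51.6% there in replicate 1. Cxcl11 is annotated as a polymorphic pseudogene, a gene that is intact in some strains and broken in others. Whether it is intact in the strain used here was not tested. Its RNA level therefore does not show that these cells can make CXCL11 protein. The transcript Cxcl11-201, typed as protein-coding, held 85.2%, 86.5% and 85.3%, and Cxcl11-202, typed as polymorphic pseudogene, held the rest. In Cxcl9 too the share depended on the quantification: the retained-intron transcript Cxcl9-202 held 8.12 ± 1.39% in the first and 25.7 ± 1.19% in the second.

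**Figure D4:**
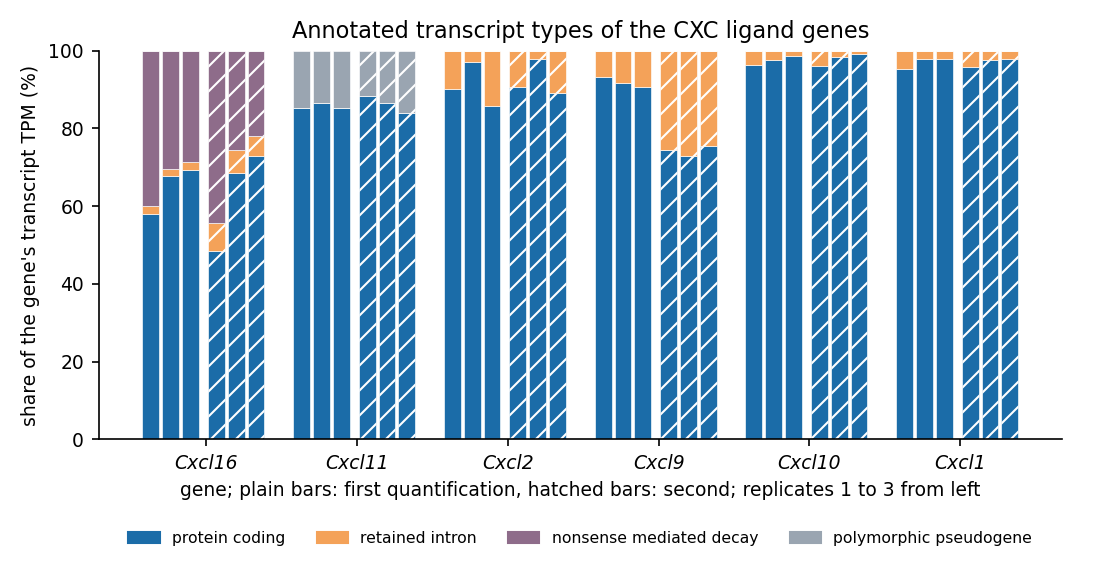
Share in percent of each gene's transcript TPM held by annotated transcript types, for the 6 CXC ligand genes in which types other than protein-coding held over 2% in the mean; plain bars are the first quantification and hatched bars the second, with replicates 1 to 3 from left. Cxcl16 shows the largest noncoding share, 42.0%, 32.2% and 30.6% in the first quantification, and Cxcl9 shows a larger retained-intron share in the second.

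The receptors of these ligands were low or not detected in the same cells. Of 8 receptor genes, 2 were detected. Cxcr3, the receptor gene for Cxcl9, Cxcl10 and Cxcl11, had 3.00, 2.11 and 3.35 TPM, and Cxcl10 stood 11.78 ± 0.42 (log2) above it. Cxcr4, whose ligand is CXCL12, had 4.03, 3.04 and 7.06 TPM. Below the detection level were Cxcr2, the receptor gene for the ELR ligands, with 0.09, 0.28 and 0.07 TPM, and Cxcr6, the receptor gene for Cxcl16, with 0.15, 0.64 and 0.13 TPM. Cxcl2 stood 8.59 ± 0.67 above Cxcr2, and Cxcl16 stood 9.60 ± 0.80 above Cxcr6 (log2 of TPM + 0.1). Cxcr1 had 0, 1 and 1 counts, and Ackr1, the decoy receptor gene, had 0 counts in every replicate.

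Genes that process or carry the ligands were mostly present, with 6 of 8 detected. The protease genes Adam17 and Adam10, whose products shed membrane-bound CXCL16, had 118, 100 and 89.4 TPM and 30.9, 38.1 and 33.8 TPM, a log2 ratio of 1.58 ± 0.30 in favour of Adam17. Sdc4, a heparan sulphate proteoglycan gene, was the highest of the list at 1912, 2073 and 1867 TPM. Srgn, the gene of the granule proteoglycan serglycin that binds PF4, had 1382, 1501 and 1317 TPM. Mmp12, whose product cleaves ELR chemokines, had 69.1, 213 and 108 TPM. Replicate 2 was the highest library for 7 of the 8 genes listed, Mmp12 among them, beside 43.9% of detected genes. Dpp4, whose product trims the first residues of CXCL10, was lowest at 0.25, 0.37 and 0.10 TPM.

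**Figure D5:**
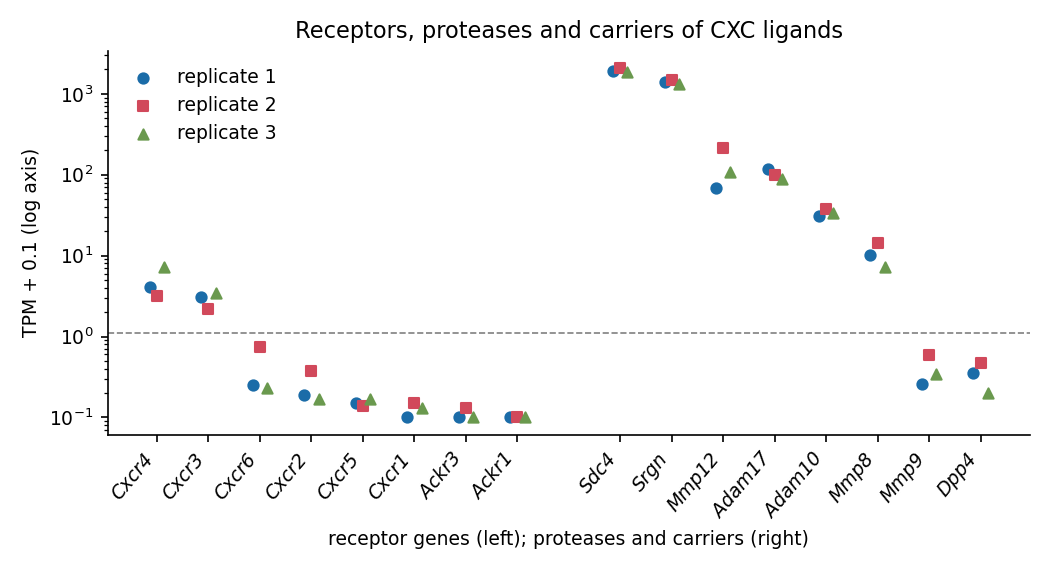
Level in TPM + 0.1 (log axis) of receptor genes (left) and of protease and carrier genes (right) in replicates 1 (circles), 2 (squares) and 3 (triangles); the dashed line marks 1 TPM. Only Cxcr4 and Cxcr3 stand above the line among the receptors, while Sdc4 and Srgn lie above 1000 TPM.

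The transcription factor genes known to act on the ligand genes were all detected (11 of 11). None was over 2-fold higher in replicate 2 than in each other replicate, against 1.54% of detected genes. So low a share leaves that count uninformative. Irf1 was the highest at 1304, 1174 and 1068 TPM and Irf3 the lowest at 29.4, 21.5 and 20.3 TPM. The median of the 11 genes in replicate 2, relative to the other replicates, was -0.08 (log2), beside 2.25 for the ELR ligand genes. A part of these factors in the ligand levels was not tested. All 6 mRNA decay and stability factor genes were detected. Zfp36, whose product tristetraprolin binds AU-rich messages such as that of Cxcl1, led with 302, 294 and 226 TPM, and Zfp36l1 was lowest with 4.26, 7.60 and 2.55 TPM.

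The remaining CXC ligand genes of the mouse were not detected (0 of 5). Cxcl12, the stromal ligand of CXCR4, had 0.08, 0.23 and 0.06 TPM, and Cxcl14 had 0.20, 0.10 and 0.11 TPM. Cxcl13, Cxcl15 and Cxcl17 had 0 counts in every replicate.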

How the data were processed

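Polyadenylated RNA of 3 replicate libraries of one group was analysed. Per the file headers, the authors deposited gene tables with expected counts (estimated fragment counts), TPM and FPKM, transcript tables with the percent of each gene held by a transcript, and a second quantification with estimated counts and TPM, on mm10 with GENCODE M21. The aligner and counters were not given in the sources used here. Deposited TPM was the main unit, FPKM served for an alternative detection count, and the authors' percent column was recomputed from transcript TPM. The second quantification was summed per gene. Entries that are no mouse gene held 0.117%, 0.0993% and 0.082% of the expected counts and were left out of library sizes.

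Ratios used log2(TPM + 0.1), which understates ratios of low genes, with mean, SD and an exact sign-flip permutation test. Expected counts, rounded to whole numbers, went into a chi-square test of equal rates (edgeR 4.0.16 in R 4.3.3: filterByExpr, TMM, Benjamini-Hochberg over all genes kept), which was tested on simulated data. Proteins were aligned with Biopython 1.88. The members, gene lists and tests were chosen with earlier results of these data known. The named genes are the members, the highest and lowest of each list, the receptors of members, and the 3 genes nearest in profile to each of 4 members. Adam10, Adam17, Art3, Zmynd15, Ly6g, Kdr, Vwf, Lck, Cd3d, Cd3e, Trac, S100a9, Ngp, Mmp12, Srgn, Itga2b and Gp1ba were named after their values were seen. The same holds for Cd3g, Cd2, Dcn, Camp and Mpo. Intervals and floors cover counting error only, since amplified fragments are not independent molecules. Alternatives are given in the closing section.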

Additional observations from a re-analysis of the deposited data

How the results depend on the processing

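The counts of members detected, departing from equal rates and of pairs in one order stayed within 1.5 times their values under the alternatives run. The number of members over 2-fold between replicates was 1 without replicate 2 and 5 without replicate 1 or 3, a range of 1 to 5. At 5 TPM, 7 members were detected in place of 9. Pairs on one side ranged from 40 to 43 and pairs over 2-fold from 37 to 40. Of 54 settings of neighbouring log2 ratios, 8 moved beyond the replicate SD. Of the neighbours that did not differ beyond their spread, Pf4/Cxcl16 and Cxcl2/Cxcl11 changed side: the latter went from 0.30 to -0.67 in counts without length scaling and to -0.46 without replicate 2. Counts without length scaling moved Pf4/Cxcl16 from 0.63 to -1.99, Cxcl9/Cxcl2 to 2.32 and Cxcl10/Pf4 to 5.97, and the Ppbp/Cxcl5 ratio was 1.96 with a pseudocount of 1 TPM. The second quantification put Cxcl10 at 7853 TPM and Cxcl16 at 231 TPM in the mean, with a median shift over all detected genes of -0.39, -0.06 and -0.27 (log2) in replicates 1, 2 and 3. Depth limits Cxcl5, read from 1, 18 and 2 counts. No paired analysis was possible because the libraries form a single group.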
